A study of Homo sapiens with 12 samples.

Results

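MSH6 and MSH3 are mismatch repair genes, and each was followed here through its probe set on 12 Affymetrix Human Gene 2.0 ST arrays. They are 2 of 14118 genes with a named probe set, and each had 1 probe set, so no choice between probe sets was needed. Both were chosen by symbol with earlier results of these data known. The p-values of the 2 members and of their difference do not allow for that choice. The arrays came from 3 colorectal cancer cell lines labelled as wild type for p53, HCT116, SW48 and RKO, exposed to 10 µM Nutlin-3a for 8 h or left untreated, which makes 6 groups with 2 arrays apiece. Nutlin-3a is a small molecule that keeps MDM2 from binding p53 and so stabilizes p53. The labels call the samples duplicates without saying whether cultures were separate, so p-values measure only the spread between these samples, which may be technical. Values are deposited log2 signals, and a gene was called at a Benjamini-Hochberg adjusted p under 0.05 in a limma fit across all genes.

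Mismatch repair corrects bases that DNA polymerase misplaced and loops left by slippage at repeats. MSH6 is a subunit of MutSα, which binds base mismatches and short loops, and MSH3 is a subunit of MutSβ, which binds larger loops. MutL complexes, which hold PMS2, PMS1 or MLH3, are then recruited, the exonuclease EXO1 removes the faulty strand, and polymerase and its clamp PCNA fill the gap. Loss of this pathway gives the microsatellite instability of a subset of colorectal cancers, and HCT116, SW48 and RKO are known members of that subset. HCT116 cells are also known to carry a mutation of MSH3.

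The sequences around the 2 transcription starts are shown because MSH6 fell under Nutlin-3a together with genes of DNA replication, many of which are known targets of E2F transcription factors, while MSH3 did not pass the test. EXO1 is shown as the other mismatch repair gene that fell in each line. Each stretch runs 5′ to 3′ on the + strand, from 250 bases before a transcription start to 30 bases after it, and is taken from RefSeq (GRCh38.p14). MSH6 lies at chr2:47782895-47783174, MSH3 at chr5:80654402-80654681 and EXO1 at chr1:241847954-241848233. Capitals mark matches on either strand to the E2F words TTTCCCGC, TTTCGCGC, TTTGCCGC and TTTGGCGC.
MSH6: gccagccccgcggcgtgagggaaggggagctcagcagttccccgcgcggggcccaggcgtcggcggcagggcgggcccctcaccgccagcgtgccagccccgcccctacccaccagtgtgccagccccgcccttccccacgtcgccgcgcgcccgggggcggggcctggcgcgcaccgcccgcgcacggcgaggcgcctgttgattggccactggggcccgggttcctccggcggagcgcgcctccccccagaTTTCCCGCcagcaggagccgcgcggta
MSH3: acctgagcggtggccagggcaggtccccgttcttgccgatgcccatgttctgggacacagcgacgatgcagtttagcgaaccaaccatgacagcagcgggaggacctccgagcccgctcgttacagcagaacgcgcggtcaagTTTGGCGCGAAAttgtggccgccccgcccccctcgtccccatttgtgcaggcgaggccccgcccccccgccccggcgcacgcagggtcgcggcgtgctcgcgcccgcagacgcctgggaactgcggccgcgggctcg
EXO1: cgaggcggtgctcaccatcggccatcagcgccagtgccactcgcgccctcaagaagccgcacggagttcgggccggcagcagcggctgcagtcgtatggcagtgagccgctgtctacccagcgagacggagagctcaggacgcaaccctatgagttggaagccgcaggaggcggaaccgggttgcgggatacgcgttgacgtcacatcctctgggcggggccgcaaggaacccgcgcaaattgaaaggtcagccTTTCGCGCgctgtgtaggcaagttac
The MSH6 stretch starts at the gene's outermost start, 1 of 4 starts in the table, and holds 1 word, beginning at base 4 of the transcript. The MSH3 stretch holds 2 overlapping words on opposite strands, the first beginning 107 bases before the start. The EXO1 stretch comes from 1 of 2 listed starts, which is not the outermost, and holds 1 word at base 5 of that transcript. Such a word was found in 3.34% of 27305 promoters of 300 bases, 1 a gene, and in 4.57% of the 10568 that belong to tested genes. Among promoters of genes called lower under Nutlin-3a on average over the lines, 85 of 740 (11.5%) held one, and among those called higher 15 of 492 (3.05%). Also searched on both strands were the GC box GGGCGG, the CCAAT box CCAAT and the cell cycle element CHR, TTTGAA. The GC box was in 75.5% of promoters of genes called lower, 70.7% of those called higher and 60.6% of those tested, the CCAAT box in 39.9%, 40.7% and 35.9%, and the CHR in 13.9%, 9.76% and 11.9%. Over all 27305 promoters the shares were 44.5% for the GC box, 35.7% for the CCAAT box and 15.5% for the CHR. The MSH6 stretch holds 5 GC boxes and 1 CCAAT box, the MSH3 stretch 4 GC boxes and the EXO1 stretch 1 GC box. A match is a description of letters and not a binding site, and MSH3 holds 2 of them without having passed the test of a change.

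MSH6 was lower under Nutlin-3a in each of the 3 lines. In HCT116 its log2 signal was 8.39 and 8.38 in Nutlin-3a cells, against 9.10 and 9.18 in untreated cells. In SW48 it was 7.59 and 7.60 in Nutlin-3a cells, against 8.50 and 8.47 in untreated cells. In RKO it was 8.61 and 8.51 in Nutlin-3a cells, against 9.03 and 8.99 in untreated cells. In every line both Nutlin-3a arrays lay below both untreated arrays, an arrangement seen in 27.0% of all tested genes in HCT116, 27.4% in SW48 and 25.7% in RKO.

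In the limma fit, MSH6 changed by -0.76 ± 0.061 in HCT116 (log2 fold change ± SE, n = 2 arrays per group, adjusted p = 0.000102), to 59.2% of the untreated signal. In SW48 it changed by -0.89 ± 0.061 (adjusted p = 4.74e-05), to 53.8%. In RKO it changed by -0.45 ± 0.061 (adjusted p = 0.00530), to 73.2%. Of the 2 members 1 was called, MSH6, in each line. Over all tested genes 5.11% were called in HCT116 (2.03% lower and 3.08% higher), 3.12% in SW48 (1.74% lower and 1.38% higher) and 2.02% in RKO (0.793% lower and 1.23% higher). Counted from the lowest change, MSH6 was gene 16 of 14118 in HCT116, gene 6 in SW48 and gene 67 in RKO. The RKO call was lost without RKO Nutlin-3a replicate 2 (adjusted p = 0.0523) and with RKO fitted alone (adjusted p = 0.156).

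MSH3 did not pass the test in any line. Its log2 signal in HCT116 was 7.80 and 8.03 in Nutlin-3a cells, against 7.75 and 7.83 in untreated cells, and the groups overlapped. In SW48 it was 9.68 and 9.70 in Nutlin-3a cells, against 9.92 and 9.79 in untreated cells. In RKO it was 7.50 and 7.37 in Nutlin-3a cells, against 7.71 and 7.56 in untreated cells. In SW48 and RKO the Nutlin-3a arrays lay below the untreated ones, an arrangement whose share over all genes is given above. The log2 fold change of MSH3 was 0.12 ± 0.094 in HCT116 (95% interval -0.087 to 0.33, adjusted p = 0.538), -0.17 ± 0.094 in SW48 (-0.38 to 0.045, adjusted p = 0.439) and -0.20 ± 0.094 in RKO (-0.41 to 0.0096, adjusted p = 0.318), all from limma. These intervals leave room for a fall of up to 0.41 on the log2 scale in RKO, so the test does not show that MSH3 stayed level.

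**Figure D1:**
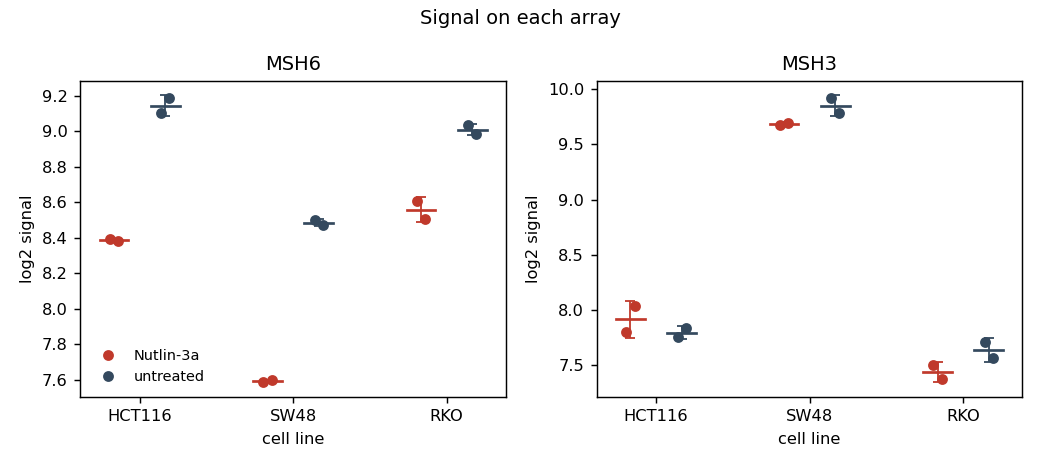
Log2 signal of MSH6 (left) and MSH3 (right) on each of the 12 arrays, by cell line, with Nutlin-3a arrays in red and untreated arrays in dark blue. Points are arrays, horizontal lines are means and bars are ± SD (n = 2). MSH6 is lower under Nutlin-3a in each line, and MSH3 sits between 9.68 and 9.92 in SW48, against 7.37 to 8.03 in the other lines.

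Averaged over the 3 lines, MSH6 changed by -0.70 ± 0.035 (adjusted p = 1.71e-06, limma), a 1.62-fold fall, and MSH3 by -0.081 ± 0.054 (95% interval -0.20 to 0.040, adjusted p = 0.418). For that average 10.8% of tested genes were called, 6.44% lower and 4.33% higher. The difference between the 2 members' changes was tested on the difference of their log2 signals within each array. It fell by 0.88 in HCT116, by 0.73 in SW48 and by 0.25 in RKO, with a mean change of -0.62. An exact two-sided permutation test of this mean, with labels permuted within lines (216 assignments), gave p = 0.00926, the smallest p this design allows. The same exact permutation test gave p = 0.00926 for MSH6 alone and p = 0.287 for MSH3 alone.

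Whether a member responded differently between lines was tested as a difference of Nutlin-3a effects. The effect on MSH6 was weaker in RKO than in SW48 by 0.44 ± 0.086 on the log2 scale (unadjusted p = 0.000464 and adjusted p = 0.0898, limma), which did not pass. The difference between RKO and HCT116 was 0.31 ± 0.086 (adjusted p = 0.217) and that between SW48 and HCT116 -0.14 ± 0.086 (adjusted p = 0.532). For MSH3 the differences were -0.29 ± 0.13 for SW48 minus HCT116, -0.32 ± 0.13 for RKO minus HCT116 and -0.035 ± 0.13 for RKO minus SW48, with adjusted p-values from 0.380 to 0.954. Few genes passed these tests: 0.212% for SW48 minus HCT116 (0.085% higher and 0.127% lower), 0.248% for RKO minus HCT116 (0.085% higher and 0.163% lower) and 0.361% for RKO minus SW48 (0.212% higher and 0.149% lower). When limma's prior variance followed signal and was fitted robustly, the RKO minus SW48 difference of MSH6 passed (adjusted p = 0.0173).

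Between untreated SW48 and the other lines the members differed in opposite directions. MSH3 was 4.17-fold higher in SW48 than in HCT116 (log2 difference 2.06 ± 0.094, adjusted p = 6e-08, limma), and 4.65-fold lower in RKO than in SW48 (-2.22 ± 0.094, adjusted p = 3e-08). RKO and HCT116 did not pass for MSH3 (-0.16 ± 0.094, adjusted p = 0.223). MSH6 was lower in SW48 than in HCT116 (-0.66 ± 0.061, adjusted p = 9.5e-06) and higher in RKO than in SW48 (0.52 ± 0.061, adjusted p = 4.92e-05). RKO and HCT116 did not pass for MSH6 (-0.13 ± 0.061, adjusted p = 0.110), although they did with quantile normalization (-0.19, adjusted p = 0.0197). Line differences were common, with 44.9% of tested genes called for SW48 minus HCT116 (22.7% higher and 22.1% lower), 41.5% for RKO minus HCT116 (22.4% higher and 19.0% lower) and 44.7% for RKO minus SW48 (23.6% higher and 21.1% lower). Cell line and any culture or array batch that followed it cannot be told apart.

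From low to high, the group means of MSH6 were 7.59 in Nutlin-3a SW48, 8.39 in Nutlin-3a HCT116, 8.49 in untreated SW48, 8.56 in Nutlin-3a RKO, 9.01 in untreated RKO and 9.14 in untreated HCT116. Arrays of neighbouring groups in this order did not overlap, but untreated SW48 at 8.47 and 8.50 lay just under Nutlin-3a RKO at 8.51 and 8.61. For MSH3 the order was 7.43 in Nutlin-3a RKO, 7.63 in untreated RKO, 7.79 in untreated HCT116, 7.91 in Nutlin-3a HCT116, 9.69 in Nutlin-3a SW48 and 9.85 in untreated SW48. The overlapping neighbours were the HCT116 groups, while the step to SW48 exceeded every spread within a group.

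Among the other mismatch repair genes, EXO1 fell with MSH6 and PCNA ran the other way. Of 27 genes in 3 lists (MutS homologs, MutL homologs, and excision and resynthesis), 10 had a named probe set. Of these, 2 were called lower in HCT116 and 2 in SW48, MSH6 and EXO1 in each, and 0 higher. In RKO 2 were called lower, again MSH6 and EXO1, and PCNA was called higher. Over all tested genes the shares called lower were 2.03% in HCT116, 1.74% in SW48 and 0.793% in RKO. Those called higher were 3.08%, 1.38% and 1.23%. The median log2 fold change of the 10 was -0.14 in HCT116, -0.16 in SW48 and -0.19 in RKO, against medians over all tested genes of -0.011, -0.013 and -0.0068.

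EXO1, the exonuclease of mismatch excision, had log2 signals in HCT116 of 9.03 and 9.09 in Nutlin-3a cells, against 9.67 and 9.79 in untreated cells. In SW48 they were 8.38 and 8.43 in Nutlin-3a cells, against 9.16 and 9.16 in untreated cells. In RKO they were 9.49 and 9.49 in Nutlin-3a cells, against 9.79 and 9.79 in untreated cells. In each line both Nutlin-3a arrays lay below both untreated arrays. Over all tested genes this was seen in 27.0% in HCT116, 27.4% in SW48 and 25.7% in RKO. The log2 fold change of EXO1 was -0.67 ± 0.060 in HCT116 (adjusted p = 0.000230), -0.76 ± 0.060 in SW48 (adjusted p = 0.000112) and -0.30 ± 0.060 in RKO (adjusted p = 0.0381), from limma. The RKO call was lost whichever of the 12 arrays was left out (adjusted p reached 0.162), and with all probe sets tested (0.0963).

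PCNA, the sliding clamp of replication and repair, is also a known p53 target. It had log2 signals in RKO of 11.38 and 11.35 in Nutlin-3a cells, against 11.04 and 10.87 in untreated cells. It rose by 0.41 ± 0.071 there (adjusted p = 0.0222, limma), a call lost without either RKO Nutlin-3a array or without untreated replicate 2 (adjusted p up to 0.107). In HCT116 and SW48 its log2 fold changes were 0.26 ± 0.071 (adjusted p = 0.0650) and 0.22 ± 0.071 (adjusted p = 0.144), and both passed with the robust prior that follows signal (0.00275 and 0.0143). Filtering out the lowest 25% of genes by signal (0.0416) or quantile normalization (0.0420) also gave a call in HCT116. On average over the lines PCNA rose by 0.30 ± 0.041 (adjusted p = 0.00148).

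In the fit reported here the MutL genes did not pass in any single line. PMS2, the endonuclease subunit of MutLα, stood at -0.29 ± 0.074 in HCT116 (adjusted p = 0.0588), -0.16 ± 0.074 in SW48 (0.332) and -0.056 ± 0.074 in RKO (0.773). Its HCT116 change passed with the robust prior that follows signal (0.0199), with the lowest 25% of genes by signal left out (0.0385) and with quantile normalization (0.0399). Its mean change passed (-0.17 ± 0.043, adjusted p = 0.0351, limma), but not when any of 10 arrays was left out singly (adjusted p reached 0.0913), nor with all probe sets tested (0.0812). PMS1 had a mean change of -0.18 ± 0.065 (adjusted p = 0.125) and MLH3 of -0.11 ± 0.043 (adjusted p = 0.155). PMS2 is known to have near-identical copies in the genome, as has HMGB1, so these probe sets may read more than 1 gene.

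Of the remaining genes, SETD2, whose histone mark H3K36me3 is known to recruit MSH6 to chromatin, had a mean change of -0.18 ± 0.055 (adjusted p = 0.0727, limma), which passed with the robust prior that follows signal (0.0206). The nuclease gene FAN1 had a mean change of 0.0045 ± 0.033 (adjusted p = 0.958), with a call in HCT116 when the lowest 25% of genes by signal were left out (0.20, adjusted p = 0.0482), and HMGB1, a chromatin protein, of -0.032 ± 0.077 (adjusted p = 0.855). Untreated lines also differed in the MutL genes: PMS2 was lower in RKO than in HCT116 (-0.81, adjusted p = 1.16e-05) and than in SW48 (-1.01, adjusted p = 1.78e-06), and PMS1 was lower in SW48 than in HCT116 (-0.74, adjusted p = 0.000322).

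**Figure D2:**
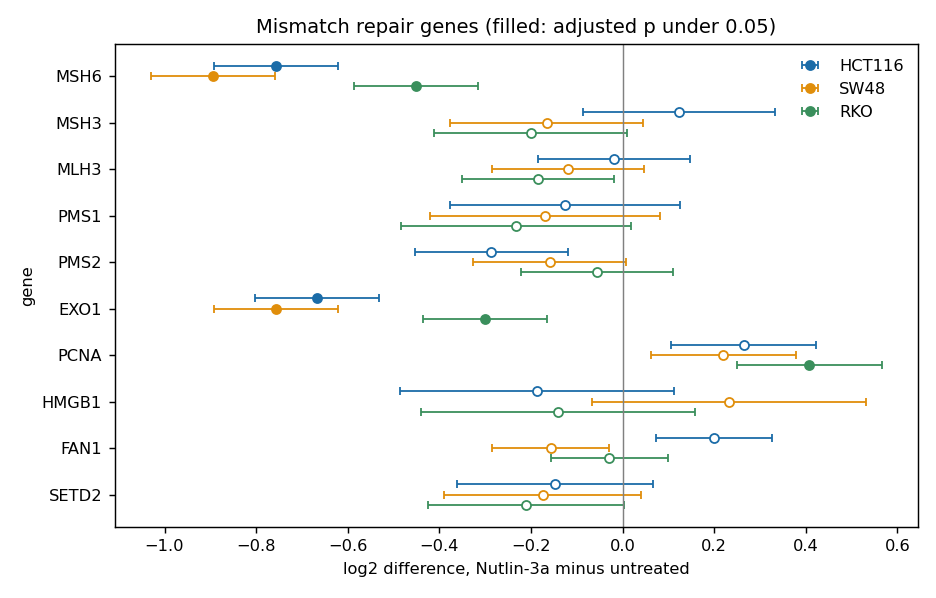
Log2 difference of Nutlin-3a minus untreated cells (horizontal axis) for the 10 measured mismatch repair genes, with 95% intervals from limma, by cell line. Filled points have an adjusted p under 0.05. MSH6 and EXO1 lie furthest to the left, at -0.89 and -0.76 in SW48, and PCNA to the right, at 0.41 in RKO.

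The genes nearest to MSH6 over the 12 arrays, by Pearson correlation of log2 signals, were WDR76 (r = 0.990), CCNE1 (0.985), CASP8AP2 (0.976), EXO1 (0.974) and FBXO5 (0.972). CCNE1 encodes cyclin E1, which drives entry into S phase, and FBXO5 encodes EMI1, an inhibitor of the anaphase-promoting complex. These arrays share lines and treatments, so the correlations are descriptions. WDR76 had log2 signals in SW48 of 9.24 and 9.27 in Nutlin-3a cells, against 9.93 and 9.94 in untreated cells, and repeated the order of MSH6 in having its lowest group in Nutlin-3a SW48. CCNE1 fell by 0.90 in HCT116, by 0.67 in SW48 and by 0.47 in RKO on the log2 scale (adjusted p at most 0.00261, limma). With each line fitted alone the RKO call of CCNE1 was lost (0.109), as were the RKO calls of EXO1, PCNA and WDR76 (0.204 to 0.227). WDR76 fell by 0.53, 0.68 and 0.30 (adjusted p at most 0.0361), with the RKO call lost whichever array was left out (adjusted p reached 0.188), and with all probe sets tested (0.0946). CASP8AP2 and FBXO5 were called lower in HCT116 and SW48 (lost with the line fitted alone for CASP8AP2 in HCT116, 0.0520, and FBXO5 in SW48, 0.0726), and stood at -0.11 (adjusted p = 0.450) and -0.22 (adjusted p = 0.132) in RKO.

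**Figure D3:**
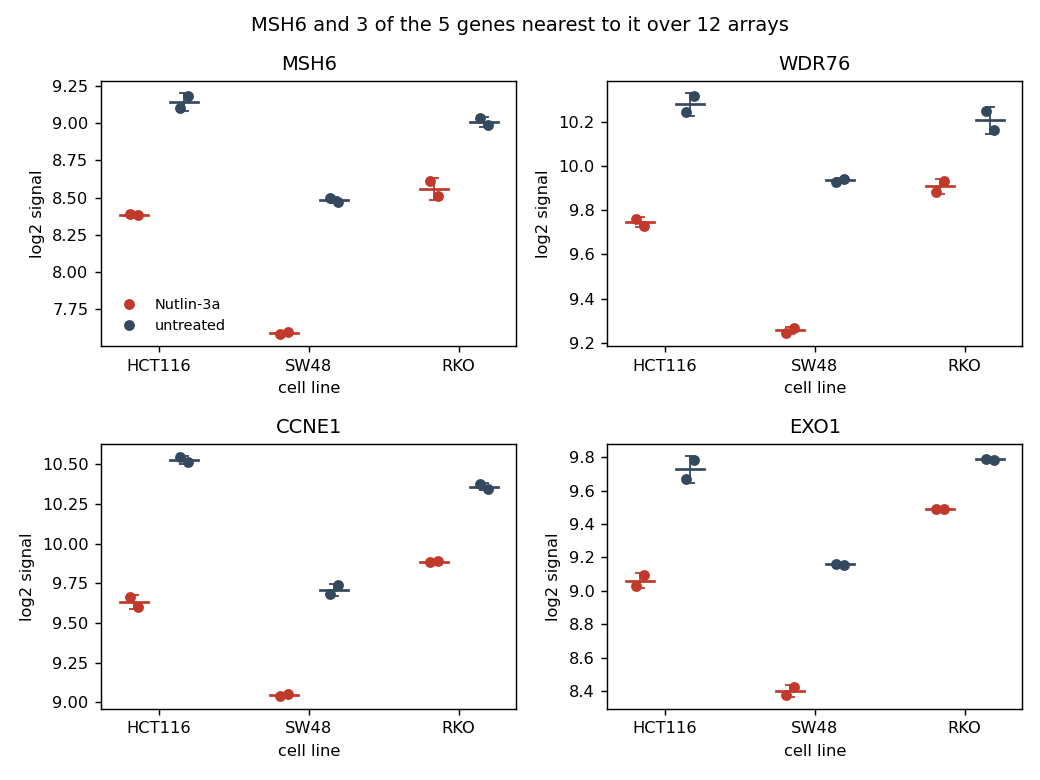
Log2 signal of MSH6, WDR76, CCNE1 and EXO1 on each array, by cell line, with Nutlin-3a arrays in red and untreated arrays in dark blue, means as horizontal lines and bars as ± SD (n = 2). All 4 genes have their lowest signals in Nutlin-3a SW48, at 7.59 and 7.60 for MSH6 and at 9.04 and 9.05 for CCNE1.

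By the 3 Nutlin-3a effects alone, the genes at the smallest Euclidean distance from MSH6 were CCNE2 (0.10 log2 units), MCM10 (0.17), E2F8 (0.21), EXO1 (0.22) and CLSPN (0.23). CCNE2 encodes cyclin E2, MCM10 a factor that loads at replication origins, E2F8 an atypical repressor of the E2F family and CLSPN the checkpoint adaptor claspin. CCNE2 changed by -0.82, -0.94 and -0.39 in HCT116, SW48 and RKO, and MCM10 by -0.63, -0.97 and -0.37. In RKO the calls of CCNE2 (adjusted p = 0.0404, limma) and E2F8 (0.0437) were lost on leaving out any of 10 and 11 single arrays (adjusted p reached 0.195 and 0.190), with all probe sets tested (0.0860 and 0.0946) and with quantile normalization (0.0512 and 0.0723). That of MCM10 (0.0154) was lost whichever RKO array was left out (adjusted p reached 0.0965). The RKO calls of CCNE2, E2F8 and MCM10 were also lost with RKO fitted alone (0.191 to 0.257), as was the HCT116 call of CLSPN with HCT116 fitted alone (0.0590), and CLSPN did not pass in RKO (adjusted p = 0.160).

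Of 46 genes listed for G1/S and replication, 33 were measured. In HCT116 23 were called lower and 1 higher, in SW48 25 and 1, and in RKO 7 and 1. Over all tested genes 2.03%, 1.74% and 0.793% were called lower in these lines, and 3.08%, 1.38% and 1.23% higher. The median log2 fold change of the 33 was -0.35 in HCT116, -0.56 in SW48 and -0.18 in RKO, against all-gene medians near 0 given above. MSH6 had its most negative and its smallest change in the same lines, SW48 and RKO. Among untreated cells 29 of the 33 were called lower in SW48 than in HCT116 and 0 higher (median -0.58), and 29 were called higher and 1 lower in RKO than in SW48 (median 0.57), the directions in which MSH6 differed. Line differences were common over all tested genes too, with 22.1% lower and 22.7% higher for SW48 minus HCT116. For RKO minus SW48 the all-gene shares were 23.6% higher and 21.1% lower. Of the 33, the gene called higher under Nutlin-3a in each line was E2F7, an atypical E2F repressor and known p53 target, at 0.78, 0.66 and 0.78, although with SW48 fitted alone it was not called there (adjusted p = 0.0579). Fewer cells in S phase and less RNA per cell cannot be told apart in such bulk samples, and the part of the cell cycle in the fall of MSH6 was not tested. Of 15 measured p53-induced genes 14 were called higher in HCT116, 15 in SW48 and 14 in RKO, led by TP53INP1, GDF15 and SESN1. The all-gene shares called higher were 3.08%, 1.38% and 1.23%. All gene lists used here, this one and the G1/S and replication list included, were chosen with earlier results of these data known. Their counts are descriptions and not tests.

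**Figure D4:**
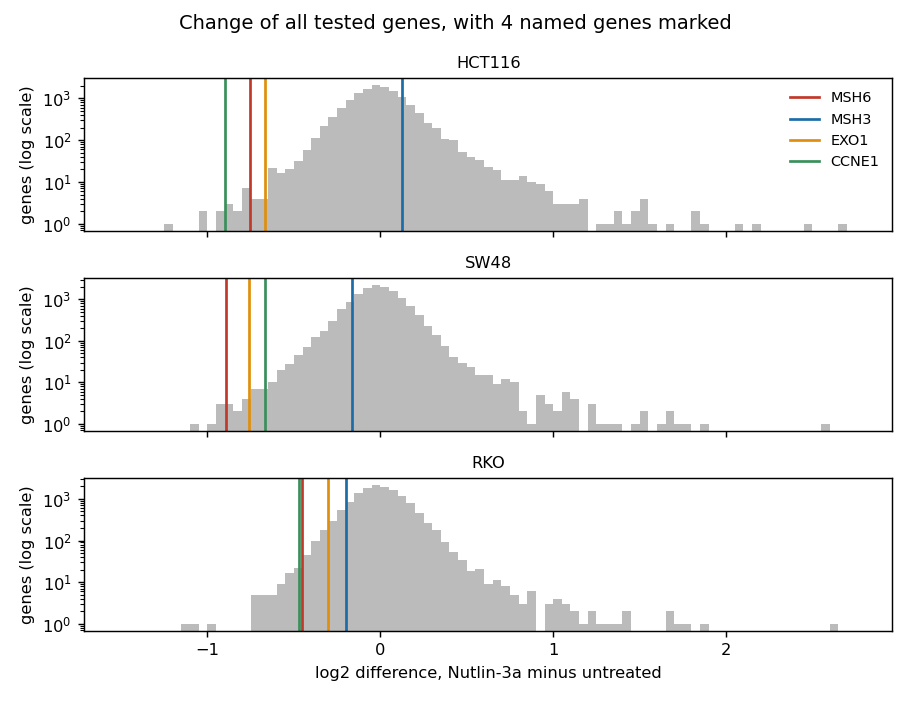
Histograms of the log2 difference of Nutlin-3a minus untreated cells over all 14118 tested genes in each line, with the number of genes on a log scale and vertical lines at MSH6, MSH3, EXO1 and CCNE1. MSH6 stands in the lower tail at -0.76 in HCT116, -0.89 in SW48 and -0.45 in RKO, and MSH3 nearer the middle at 0.12, -0.17 and -0.20. Counted from the lowest change, MSH3 was gene 11515 in HCT116, gene 1921 in SW48 and gene 1223 in RKO.

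The genes nearest to MSH3 over the 12 arrays were KREMEN1 (r = 0.997), NIPAL2 (0.997), SNX6 (0.997), ARHGAP32 (0.996) and TTC3 (0.995), which set SW48 apart from the other lines as MSH3 does. KREMEN1, a receptor of the Wnt antagonist DKK1, had group means of 9.75 and 9.84 in Nutlin-3a and untreated SW48, against 8.30 to 8.49 in the 4 groups of the other lines. None of these 5 was called for Nutlin-3a in any line, where their log2 fold changes lay between -0.19 and 0.12. By the 3 Nutlin-3a effects the genes nearest to MSH3 were ZNF467, APOLD1, SERTAD3, PROKR1 and DST, at distances from 0.022 to 0.037 log2 units, and none was called in any line.

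Neighbouring genes were looked at after the members' values had been seen, to show whether line differences were shared along the chromosome. The 5 measured protein-coding genes on each side of each member were taken in RefSeq order (GRCh38.p14). Unmeasured genes were passed over and distance was not limited, so some of those taken may lie far from the member. FBXO11, an F-box gene that overlaps MSH6, had a mean Nutlin-3a change of -0.039 ± 0.035 (adjusted p = 0.570, limma). For that mean 0 of the 10 genes around MSH6 were called, beside 10.8% of all tested genes, so so few calls are near the all-gene share. In untreated SW48 minus HCT116, 2 of these 10 were called higher and 1 lower, beside all-gene shares of 22.7% and 22.1%. FOXN2, the next measured gene after FBXO11, was lower (-0.58 ± 0.082, adjusted p = 0.000215), as MSH6 was, whereas TTC7A (0.61 ± 0.12, adjusted p = 0.00203) and ERLEC1 (0.57 ± 0.061, adjusted p = 2.67e-05) were higher and FBXO11 was not called (-0.024, adjusted p = 0.786). EPCAM, the epithelial adhesion gene that is the nearest measured one before MSH6, was lower in RKO than in HCT116 by 4.99 on the log2 scale (log2 difference -4.99 ± 0.19), whereas MSH6 did not pass in that comparison.

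Around MSH3, 3 of 10 genes were called higher and 1 lower in SW48 than in HCT116, beside the same all-gene shares of 22.7% and 22.1%. SERINC5, a gene for a membrane protein, was 3.47-fold higher (1.80 ± 0.056, adjusted p = 3.7e-09, limma), near the size of the MSH3 difference, whereas the measured genes directly beside MSH3 stood at -0.11 (ANKRD34B) and 0.33 (RASGRF2). MTX3, further along, was 35.2-fold lower in SW48 (-5.14 ± 0.13). For the mean Nutlin-3a change 0 of these 10 genes were called higher and 1 lower, ATG10 (-0.18 ± 0.045, adjusted p = 0.0287, limma). All-gene shares for that mean were 4.33% higher and 6.44% lower. Copy number was not measured.

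**Figure D5:**
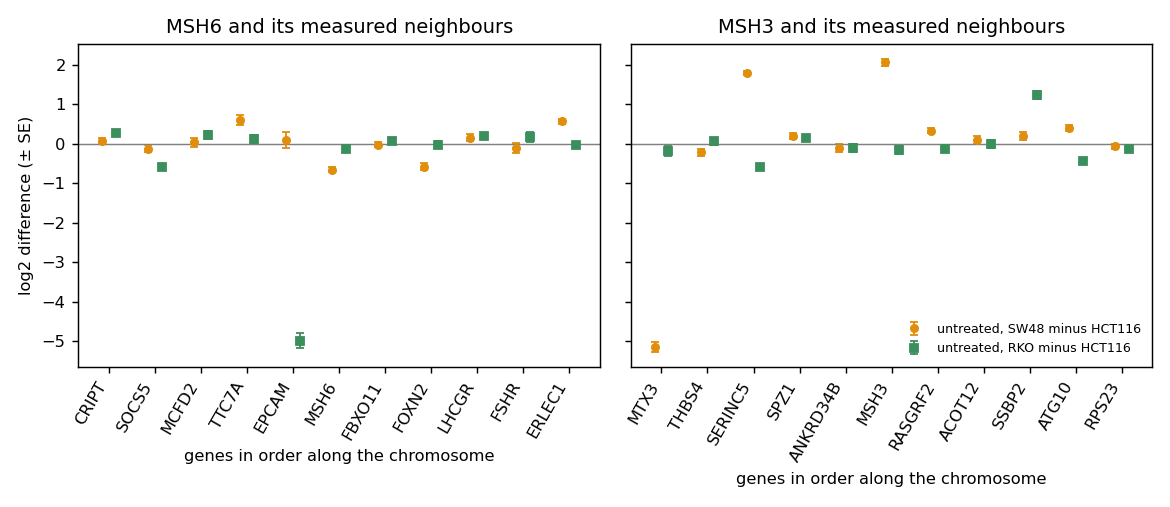
Log2 difference (± SE from limma) between untreated lines for MSH6 (left) and MSH3 (right) and the 5 measured protein-coding genes on each side, in order along the chromosome. Orange circles are SW48 minus HCT116 and green squares RKO minus HCT116. SERINC5 at 1.80 and MSH3 at 2.06 stand high in SW48 with lower genes between them, and EPCAM at -4.99 stands low in RKO.

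As a check of the arrays, arrays of a group correlated at r of 0.996 to 0.997 over all probe sets and arrays of different lines at 0.957 to 0.965, and array medians lay between 4.97 and 5.05. The labels' extraction text speaks of thyroids and the growth text of HCT116 only. The thyroid markers TG and TSHR had group means of 4.49 to 5.27 in all 6 groups, near the array medians, and the 5 measured of 7 thyroid markers lay between 4.49 and 6.24. Of 12 colorectal epithelial markers 10 were measured, with group means from 3.72 to 11.12 and medians over the list of 6.49 to 7.28 in the HCT116 and SW48 groups and 5.87 and 5.88 in Nutlin-3a and untreated RKO. EPCAM stood at 11.02 to 11.12 in the HCT116 and SW48 groups and at 5.85 and 6.03 in Nutlin-3a and untreated RKO. KRT20 lay between 4.17 and 5.27 in all groups, CDX1 between 5.73 and 5.87 and VIL1 between 5.71 and 6.04. CEACAM5 and LGR5 stood at 9.16 and 6.12 in Nutlin-3a SW48 and 9.25 and 6.75 in untreated SW48, against 3.72 to 4.67 in the groups of the other lines. Of 6 immune markers 3 were measured, and CD14 and LYZ had group means of 3.76 to 4.11. CD68, which many cell types express, had 8.56 to 10.56. Of 7 fibroblast markers 3 were measured, with group means from 3.07 to 5.86, and of 5 endothelial markers 2, with group means from 4.20 to 4.99.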

How the data were processed

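The deposited table holds log2 signals, 1 per probe set and array, made by the authors with Affymetrix GCOS, per the submitters' processing notes. The sources used here do not give the background correction, summarization, normalization or genome build, and the log base was read from the range of values (2.22 to 13.45). Of 37270 probe sets 14530 had 1 gene symbol, 0 several and 22740 none, and columns of samples not used numbered 0. Per symbol the probe set with the highest mean was kept, which left 14118 genes, with no filter on signal. A single model of 6 group means was fitted to the 12 arrays with limma 3.58.1 in R 4.3.3 (6 residual and 3.71 prior degrees of freedom), and tested on simulated data. The 2 arrays per group limit the precision. Genes were named by rule: both members, all measured mismatch repair genes, the 3 most changed genes of each other list, the 5 nearest genes by each measure, and adjacent genes. Members and lists were chosen with earlier results of these data known. Alternatives were another scaling, prior, filter, feature set, threshold, block or array set.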

Additional observations from a re-analysis of the deposited data

Results flagged for a closer look

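Responses to Nutlin-3a that differed between lines by the interaction test were found for 4 of the named genes, with all values on the log2 scale and from limma. BARD1, the partner of BRCA1, changed by -0.095 in RKO and -0.64 in SW48, a difference of 0.54 ± 0.084 for RKO minus SW48 (adjusted p = 0.0340). MCM10 changed by -0.37 in RKO and -0.97 in SW48, a difference of 0.59 ± 0.085 (adjusted p = 0.0269). TP53INP1, a p53 target, changed by 1.73 in SW48 and 2.48 in HCT116, a difference of -0.76 ± 0.11 for SW48 minus HCT116 (adjusted p = 0.0285). GDF15, a stress cytokine induced by p53, differed by 1.05 ± 0.14 for SW48 minus HCT116 (adjusted p = 0.0199) and by -1.26 ± 0.14 for RKO minus SW48 (adjusted p = 0.00649). MSH6 and MSH3 were not among these genes. Of the 33 measured G1/S and replication genes, 10 were called higher and 0 lower for RKO minus SW48. All-gene shares there were 0.212% higher and 0.149% lower. For SW48 minus HCT116 0 of the 33 were called higher and 1 lower, and for RKO minus HCT116 0 either way. With a replicate block, only 1 of all tested genes was called for RKO minus SW48.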

How the results depend on the processing

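Over the alternatives other than leaving out an array, 145 of 148 values of MSH6 and MSH3 kept their direction and their side of the threshold. The exceptions were MSH6 in RKO with the line fitted alone (-0.45, adjusted p = 0.156), MSH6 for RKO minus SW48 in the Nutlin-3a effect with a robust prior that follows signal (0.44, adjusted p = 0.0173), and MSH6 for untreated RKO minus HCT116 with quantile normalization (-0.19, adjusted p = 0.0197). The cause was not tested. Leaving out 1 array gave MSH6 in RKO from -0.50 to -0.40 and MSH3 for RKO minus SW48 in the Nutlin-3a effect from -0.11 to 0.040, which turned sign in 3 of 12 cases without passing. Numbers of called genes moved more. With that prior they were 1228 in HCT116, 870 in SW48 and 760 in RKO, against 721, 441 and 285, and 145, 114 and 157 for the effect differences SW48 minus HCT116, RKO minus HCT116 and RKO minus SW48, against 30, 35 and 51. With a replicate block, although same-numbered arrays of a line share only a number (correlation of their deviations -0.055 to 0.055), they were 357, 218 and 87 in the 3 lines, 960 for the mean, against 1520, and 0, 1 and 1 for the effect differences, and MSH6 kept its calls. So with the block the differences of TP53INP1 and GDF15 for SW48 minus HCT116 were not called, and at most 1 of those of BARD1, MCM10 and GDF15 for RKO minus SW48 was. Other named genes lost 12 calls in single lines or the mean with the block. In RKO these were EXO1 (adjusted p = 0.114, limma), PCNA (0.0878), CCNE2 (0.113), E2F8 (0.149), MCM10 (0.0740), WDR76 (0.138) and RAD51C (0.0557). The rest were UNG (0.0938), NEIL3 (0.0645) and XRCC2 (0.0690) in HCT116, XRCC2 in SW48 (0.0823) and PMS2 in the mean (0.0942). At an adjusted p under 0.01 the numbers of called genes were 274, 188, 84 and 639, and 6, 0 and 8. Fitted alone, the lines gave 208, 115 and 31. Leaving out the lowest 25% of genes by signal gave 433 in RKO. Testing all probe sets gave 10196, 9312 and 10429 for the untreated lines, against 6334, 5852 and 6311, and 32 for RKO minus SW48 in the effect. Leaving out 1 array gave 260 to 692 in HCT116, 188 to 394 in SW48, 97 to 226 in RKO, and 8 to 27, 0 to 10 and 7 to 28 for the effect differences. Of 1147 values of the other named genes under the alternatives without array removal, 42 lost and 13 gained a call and 5 turned sign, none of them past the test: FAN1 in the mean (-0.0037) and MLH3 (0.012) and NIPAL2 (0.012) in HCT116 with median centring, and KREMEN1 in HCT116 (-0.013) and FAN1 in RKO (0.0027) with quantile normalization. With 1 array left out a further 22 turned sign, none past the test: APEX2 in RKO (-0.21 to 0.0047), ARHGAP32 in HCT116 (-0.18 to 0.032) and RKO (-0.17 to 0.010), FAN1 in the mean (-0.0070 to 0.016) and RKO (-0.063 to 0.0056), HMGB1 in HCT116 (-0.38 to 0.010) and the mean (-0.098 to 0.033), KREMEN1 in HCT116 (-0.052 to 0.076) and RKO (-0.10 to 0.036), MLH3 (-0.063 to 0.026), NIPAL2 (-0.079 to 0.044) and SNX6 (-0.0025 to 0.067) in HCT116, PMS1 in SW48 (-0.35 to 0.014) and PMS2 in RKO (-0.11 to 0.00091).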

Other observations

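Genes of other repair pathways were also measured. Of 15 measured base excision repair genes, 3 were called lower in HCT116, 1 in SW48 and 0 in RKO, and 0 higher in any line, with medians of -0.061, -0.13 and -0.046 on the log2 scale, beside all-gene shares called lower of 2.03%, 1.74% and 0.793%. The HCT116 calls of UNG and NEIL3 were lost with all probe sets tested (adjusted p = 0.101 and 0.0683), with median centring (0.0961 and 0.0605), with HCT116 fitted alone (0.144 and 0.0881), and on leaving out any of 10 and 4 single arrays (adjusted p reached 0.195 and 0.139), all from limma. That of UNG in SW48 was lost on leaving out any of 3 arrays (adjusted p reached 0.0767) and with SW48 fitted alone (0.0869). On average over the lines, UNG, the uracil glycosylase gene, had a mean change of -0.32 ± 0.037 (adjusted p = 0.000509, limma), the endonuclease gene APEX2 of -0.22 ± 0.047 (adjusted p = 0.0153) and the glycosylase gene NEIL3 of -0.21 ± 0.039 (adjusted p = 0.00854).

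Of 13 measured homologous recombination genes, 5 were called lower in HCT116, 5 in SW48 and 0 in RKO, and 0, 1 and 1 higher, beside the same all-gene shares called lower and shares called higher of 3.08%, 1.38% and 1.23%. XRCC2, called lower in HCT116 and SW48, lost those calls on leaving out any of 3 HCT116 and any of 4 SW48 arrays (adjusted p reached 0.120 in each), with the lines fitted alone (0.0921 and 0.0869), and in SW48 with all probe sets tested (0.0503). BARD1 had a mean change of -0.44 ± 0.034 (adjusted p = 4.11e-05, limma) and XRCC2 of -0.32 ± 0.044 (adjusted p = 0.00134). RAD51C ran the other way (0.33 ± 0.035, adjusted p = 0.000319). It was called higher in SW48 (0.43 ± 0.061, adjusted p = 0.00511) and in RKO (0.44 ± 0.061, adjusted p = 0.00699), with the RKO call lost on leaving out any of 3 RKO arrays (adjusted p reached 0.0548), and both calls lost with the lines fitted alone (0.0870 and 0.140).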
